A study of Mus musculus with 5 samples.

Results

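Transcript levels of 10 genes of glucose uptake and glycolysis were compared between CD4 T cells from the colon of conditional calcineurin B mice and of control mice. The genes encode the glucose transporters Slc2a1 and Slc2a3, the hexokinases Hk1 and Hk2, the glycolytic enzymes Aldoa, Pgk1 and Ldha, the lactate exporter Slc16a3, the pyruvate dehydrogenase kinase Pdk1 and the transcription factor Hif1a. Each gene was represented by the probe set that carried its symbol alone and had the highest mean over all arrays, and all 10 were found among the 19937 genes measured in this way. The cells were sorted from the colonic lamina propria, the connective tissue under the gut epithelium, as CD45+CD3+CD4+ cells with low CD44, a surface receptor that rises on activated T cells. The 3 conditional arrays came from mice with the floxed Cnb1 gene and a Cre recombinase under the control of CD4 (CD4cre/Cnb1flox), and the 2 control arrays from mice that had the floxed gene but lacked Cre (CD4neg/Cnb1flox), which the labels also call WT. Cnb1, gene symbol Ppp3r1, encodes the regulatory subunit of calcineurin, and both groups therefore carried the floxed allele. The series describes 3 experiments with 3 to 5 mice per group, but the labels used here give neither the animals' age nor strain, nor whether RNA of several mice was pooled for an array, so the p-values measure the spread between these arrays, which may be technical.

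Glycolysis converts glucose to pyruvate in the cytosol. Glucose enters T cells mainly through the transporters GLUT1 (Slc2a1) and GLUT3 (Slc2a3) and is trapped by hexokinases, and in activated T cells much of the pyruvate becomes lactate through lactate dehydrogenase A and leaves through the transporter MCT4 (Slc16a3). The kinase PDK1 blocks pyruvate dehydrogenase and so keeps pyruvate out of the mitochondria, and HIF-1α (Hif1a) activates most of these genes when oxygen is low or the T cell receptor is engaged. Calcineurin, a phosphatase switched on by calcium, activates NFAT factors, which in mouse T cells are known to take part in the induction of glucose transporters and glycolytic enzymes after activation.

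The values are log2 signals made by the authors with RMA, in which an increase of 1 stands for a doubling of signal, and differences are given on this scale as conditional minus control. They were tested with limma over all 19937 genes with Benjamini-Hochberg adjustment and a threshold of 0.05. The control arrays differed in the levels of cell type markers. A fit with the T cell marker mean as a covariate was made, but that mean is tied to control replicate 1. The part of the T cell markers in the results of the 10 genes therefore cannot be told apart from that of this array. The part of the other markers was not tested. The mean of 12 measured T cell markers was between 10.94 and 11.21 on the conditional arrays, against 8.51 in control replicate 1 and 11.28 in control replicate 2, and no marker can be read as absent on this scale. Cd3e, a chain of the T cell receptor complex, read 11.67, 11.61 and 11.88 in conditional cells, against 9.45 in control replicate 1 and 12.21 in control replicate 2, and Cd4 was likewise lowest in control replicate 1. Epithelial markers had means of 7.46 to 7.95 in conditional cells, against 9.998 and 8.21 in control replicates 1 and 2. Of 14 epithelial markers, 2 passed as lower, Krt20 at -1.67 and Cdhr5 at -1.41 (limma, adjusted p = 0.0327 and 0.0366). Over all genes 0.0451% were called lower, and no marker of the other cell type lists passed. Stromal and endothelial markers had means of 8.49 to 9.55 in conditional cells, against 10.73 and 9.07 in control replicates 1 and 2. Macrophage and dendritic markers had means of 7.51 to 7.995 in conditional cells, against 6.78 and 6.78 in control cells, granulocyte and mast cell markers 6.73 to 6.91 against 6.05 and 6.16, and B cell markers 8.22 to 8.87 against 9.22 and 9.23. In such samples a change in the number of cells of one type and a change in RNA per cell cannot be told apart. The targeted gene itself read 8.64, 8.83 and 8.77 in conditional cells, against 8.99 and 8.60 in control cells, a difference of -0.052 ± 0.159 (SE, limma, adjusted p = 0.927), and the sources used here do not say whether its probe set covers the deleted part.

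**Figure D1:**
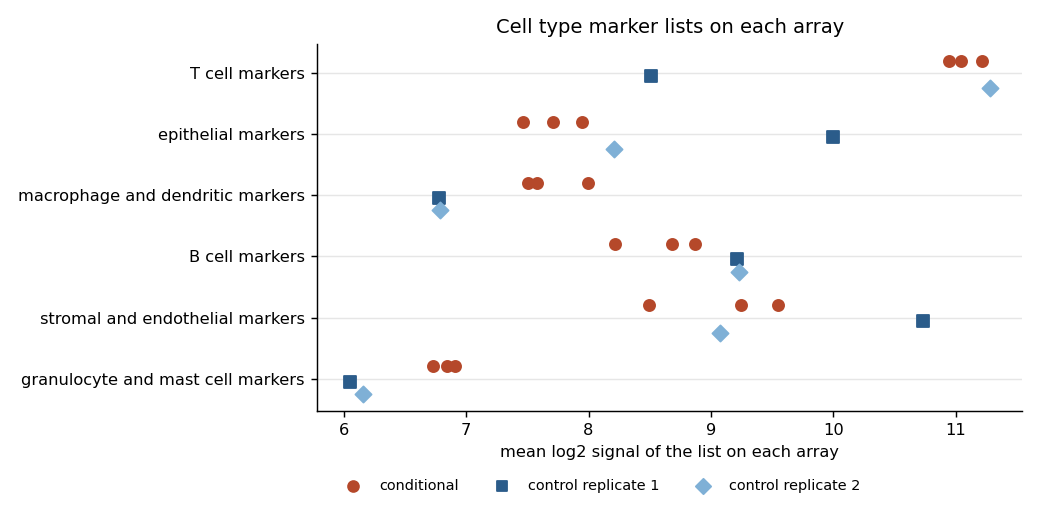
Mean log2 signal (horizontal axis) of 6 cell type marker lists (rows) on each of the 5 arrays, with conditional arrays as circles and control replicates 1 and 2 as a square and a diamond. T cell markers lay at 8.51 in control replicate 1 and between 10.94 and 11.28 on the other arrays, while macrophage and dendritic markers lay at 6.78 on both control arrays and at 7.51 to 7.995 on the conditional arrays.

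Of the 10 genes 4, Aldoa, Pgk1, Ldha and Slc16a3, were higher on all 3 conditional arrays than on both control arrays. Their differences were 1.19-fold to 1.75-fold, but none passed the test over all genes. The means of the macrophage and dendritic markers, and of the granulocyte and mast cell markers, were also higher on all 3 conditional arrays than on both control arrays. The part of such cells in the differences of these 4 genes was not tested. The other 6 genes did not separate the groups, and the sign or the size of their differences depended on which control array was used. For Slc2a3, Hif1a, Hk2 and Pdk1 the control arrays were 0.87 to 1.96 apart. Slc2a1 and Hk1 had smaller gaps, with differences of 0.22 and 0.16 against control replicate 1 and 0.0096 and -0.052 against control replicate 2. In all, 0 of the 10 passed the limma test at an adjusted p of 0.05, in a comparison that called 0.416% of all genes, and 3 of 10 had an unadjusted p below 0.05, against 14.5% of all genes. The 4 of 10 with all conditional values above both controls compare with 17.4% of all genes, and no member had all its conditional values below both controls, against 13.1%. The median difference of the 10 genes was 0.43, beside 0.029 over all genes, and 9 were positive. A positive difference was found for 11144 of all 19937 genes. The absence of a fully lower member and the count of 9 depend on the probe set taken for Hk1. In the other probe set with the Hk1 symbol alone, all conditional values lay below both controls, with a difference of -0.27. With control replicate 1 alone the members' median was 0.30, beside 0.087 over all genes, and with control replicate 2 alone 0.20, beside -0.017.

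**Figure D2:**
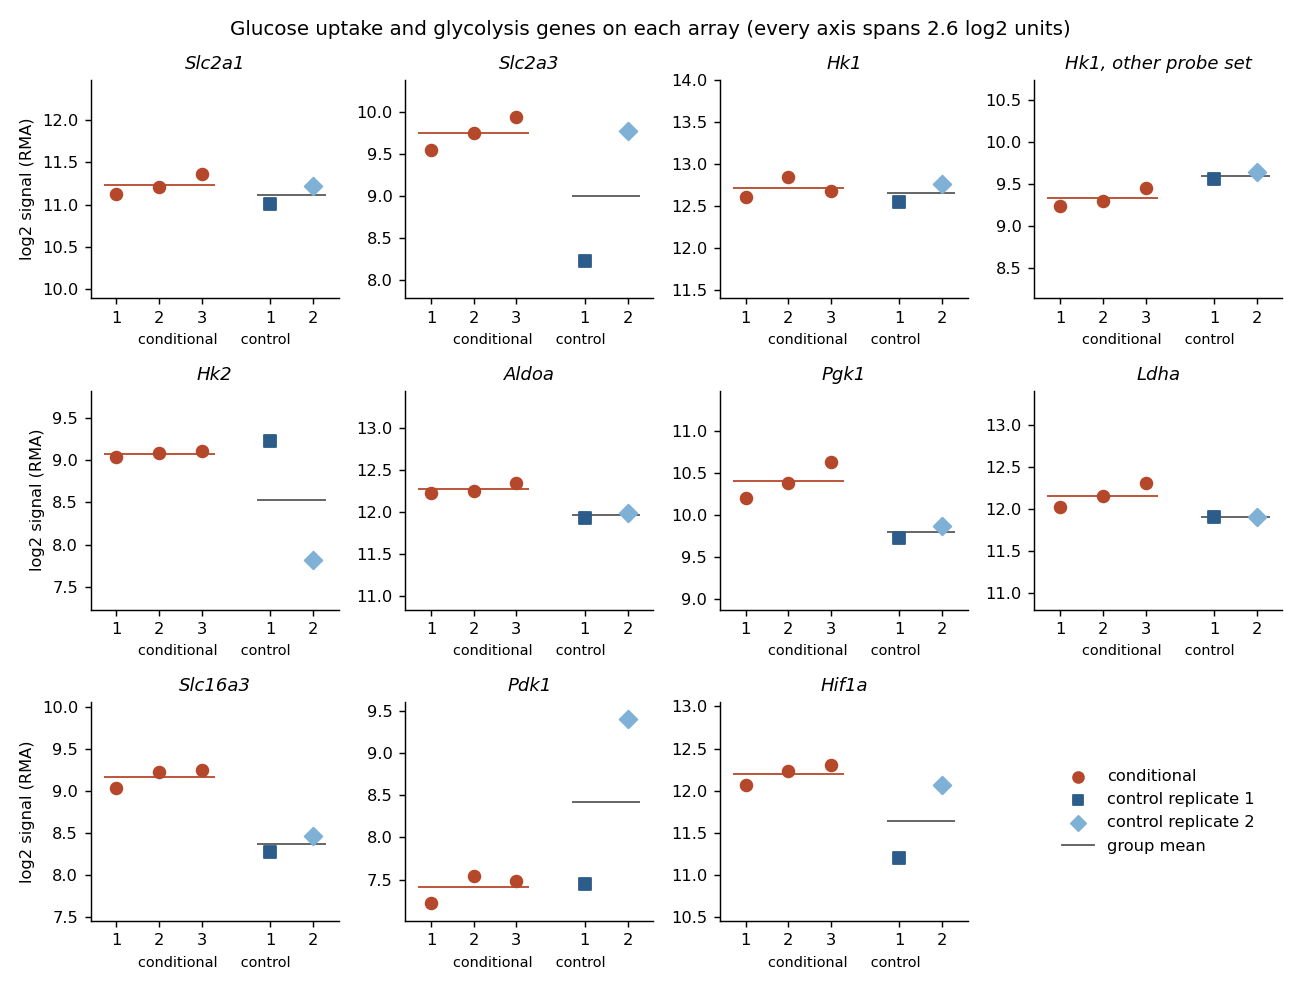
Log2 signal of each gene (vertical axes, each spanning the same range) on the 3 conditional arrays (circles), control replicate 1 (square) and control replicate 2 (diamond), with lines at the group means and a panel for each of both Hk1 probe sets. Aldoa, Pgk1, Ldha and Slc16a3 lie above both controls on every conditional array, Slc2a3 and Hif1a are low in control replicate 1 alone, and Hk2 is low and Pdk1 high in control replicate 2 alone.

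The promoters of these 4 genes are shown because they share the array pattern, and that of Pdk1 because it had a different one. Each window is the 250 bases before a transcription start in RefSeq (GRCm38.p6), in which the letters ACGTG and GCGTG, the core of the hypoxia response element bound by HIF-1, were searched on both strands. Matches are in capitals, and a match on the other strand reads CACGT or CACGC.
Slc16a3: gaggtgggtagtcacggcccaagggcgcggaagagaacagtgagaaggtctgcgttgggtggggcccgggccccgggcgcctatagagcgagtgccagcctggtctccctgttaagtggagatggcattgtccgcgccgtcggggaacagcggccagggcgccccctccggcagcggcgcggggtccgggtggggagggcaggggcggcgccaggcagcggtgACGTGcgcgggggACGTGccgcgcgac
Pgk1: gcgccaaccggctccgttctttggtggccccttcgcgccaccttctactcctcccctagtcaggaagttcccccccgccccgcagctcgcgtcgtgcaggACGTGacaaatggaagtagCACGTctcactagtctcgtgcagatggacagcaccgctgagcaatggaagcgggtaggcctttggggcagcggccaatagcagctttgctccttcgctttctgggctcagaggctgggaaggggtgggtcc
Ldha: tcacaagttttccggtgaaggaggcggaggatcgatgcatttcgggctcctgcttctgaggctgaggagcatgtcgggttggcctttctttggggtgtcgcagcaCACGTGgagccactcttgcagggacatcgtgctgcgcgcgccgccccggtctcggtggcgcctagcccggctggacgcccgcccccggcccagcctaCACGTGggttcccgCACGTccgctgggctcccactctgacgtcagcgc
Aldoa: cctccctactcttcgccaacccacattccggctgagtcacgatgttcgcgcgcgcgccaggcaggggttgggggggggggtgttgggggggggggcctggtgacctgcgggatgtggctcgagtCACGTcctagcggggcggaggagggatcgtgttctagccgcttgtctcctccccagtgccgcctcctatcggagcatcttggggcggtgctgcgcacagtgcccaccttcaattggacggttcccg
Pdk1: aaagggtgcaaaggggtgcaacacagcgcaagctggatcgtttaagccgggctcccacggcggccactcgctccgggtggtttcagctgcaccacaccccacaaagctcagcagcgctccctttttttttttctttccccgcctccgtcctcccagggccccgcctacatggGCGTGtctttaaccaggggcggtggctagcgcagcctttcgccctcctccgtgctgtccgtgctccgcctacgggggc
The windows lie at chr11:120948817-120949066, plus strand for Slc16a3, chrX:106186850-106187099, plus strand for Pgk1, chr7:46845554-46845803, plus strand for Ldha, chr7:126799255-126799504, minus strand for Aldoa and chr2:71872974-71873223, plus strand for Pdk1. Where RefSeq gave several starts, the window with the most matches was taken, which was so for Aldoa with 3 starts and for Ldha, Hk1 and Pdk1 with 2 each. Slc16a3 had 2 matches, both ACGTG and both within 27 bases of the start, and Pgk1 had 2, beginning 150 and 131 bases before it. Ldha had 5, of which 4 are the opposite strands of 2 copies of the palindrome CACGTG, the E-box bound by MYC and MAX, so that both motifs overlap there. Aldoa had 1 match and Pdk1 1, of the GCGTG form. Over all 14 windows of the 9 members in the table, with no choice between starts, 11 held at least 1 match, and the windows without one were at other starts of Hk1, Aldoa and Pdk1. The share among 32851 promoter windows of the same length was 38.6%. The NFAT core GGAAA, on either strand, was found in 7 of the 14 windows, of Hk1, Aldoa, Ldha, Pdk1 and Hif1a, against 55.6% of all windows. Windows of 1 gene can overlap, so the 14 are not independent. Slc2a3 had no window. The windows of all promoters were not matched to those of the members in base composition, and its part in these shares was not tested.

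**Figure D3:**
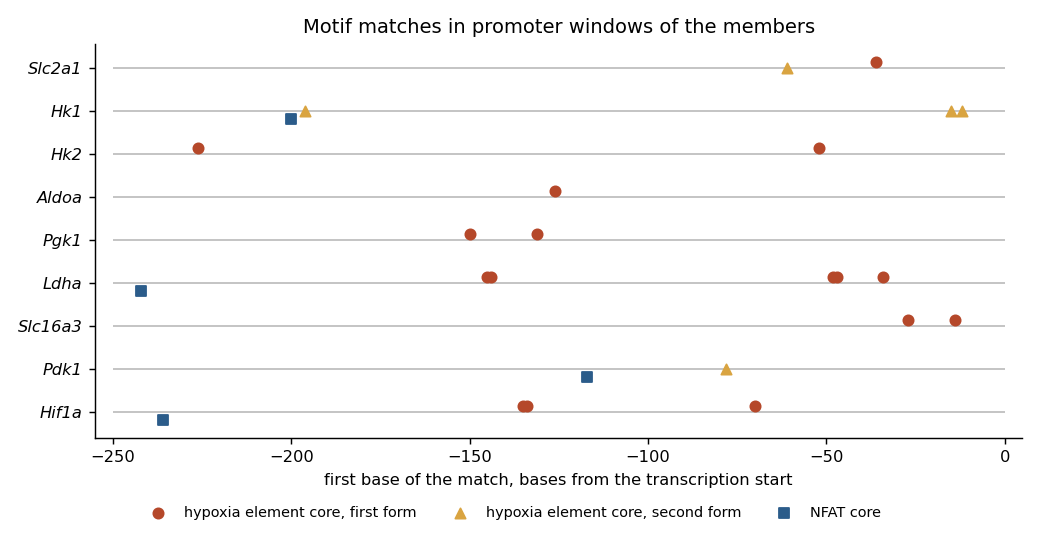
Position of motif matches in the promoter windows of 9 members (rows, 1 window each, that with the most hypoxia core matches), as the distance in bases of the first matched base from the transcription start (horizontal axis). Circles and triangles are both forms of the hypoxia response core and squares the NFAT core, and the 2 circles of Slc16a3 lie within 27 bases of the start.

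Slc16a3, which exports lactate together with a proton, had the largest positive difference of the 10. Its signal was 9.04, 9.23 and 9.25 on the conditional arrays, against 8.27 and 8.46 on the control arrays. The lowest conditional value lay above the higher control. The means were 9.17 ± 0.117 (SD, n = 3) and 8.37 ± 0.135 (SD, n = 2), a difference of 0.81 ± 0.129 (SE) or 1.75-fold, with a 95% interval from 0.48 to 1.13 and an adjusted p of 0.0917 in limma, where it ranked 313 of all genes by p. It was 0.90 above control replicate 1 and 0.71 above control replicate 2, so that both controls gave a difference of similar size. Fits with 1 control array left out take their spread from the 3 conditional arrays alone, assume that the lone control array varies like them, and called 6.10% of all genes without control replicate 1 and 27.5% without control replicate 2. In these fits the adjusted p of Slc16a3 in limma was 0.0474 and 0.00709, past the threshold but among many more genes.

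Pgk1, the enzyme of the first ATP-yielding step, read 10.20, 10.38 and 10.63 in conditional cells, against 9.72 and 9.86 in control cells. The groups did not overlap, and conditional replicate 3 was the highest array. The difference was 0.61 ± 0.161 (SE), 1.53-fold, with a 95% interval from 0.20 to 1.02 (limma, adjusted p = 0.194). The conditional mean lay 0.68 above the first control array and 0.54 above the second. With control replicate 1 as the lone control, in the fit that called 27.5% of all genes, the adjusted p in limma was 0.0439.

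Aldoa, the aldolase that splits fructose bisphosphate, read 12.22, 12.24 and 12.35 in conditional cells, against 11.93 and 11.99 in control cells. The spread within each group was smaller than the gap between them. The difference was 0.31 ± 0.105 (SE), 1.24-fold, with a 95% interval from 0.045 to 0.58 (limma, adjusted p = 0.282). Ldha, the subunit that favours lactate production, read 12.02, 12.15 and 12.30 in conditional cells, against 11.91 and 11.90 in control cells. Both controls were nearly equal and every conditional array lay above them. Its difference was 0.25 ± 0.126 (SE), 1.19-fold, with a 95% interval from -0.068 to 0.58 (limma, adjusted p = 0.442).

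The glucose transporters behaved unlike each other. Slc2a1, the main glucose transporter of activated T cells, read 11.12, 11.21 and 11.36 in conditional cells, against 11.01 and 11.22 in control cells, so that the groups overlapped. The difference was 0.12 ± 0.133 (SE), with a 95% interval from -0.22 to 0.46 (limma, adjusted p = 0.765), 0.22 against control replicate 1 and 0.0096 against control replicate 2. Slc2a3, the high-affinity transporter, read 9.55, 9.76 and 9.94 in conditional cells, against 8.23 in control replicate 1 and 9.78 in control replicate 2. Control replicate 2 fell within the conditional values and only control replicate 1 was low. The limma difference of 0.75 ± 0.467 (SE, adjusted p = 0.538), with a 95% interval from -0.45 to 1.94, was made up of 1.52 against control replicate 1 and -0.029 against control replicate 2. The low array was also the one with the low T cell markers. With their mean as a covariate the difference of Slc2a3 was 0.083 (limma, adjusted p = 0.850). That covariate is tied to control replicate 1, so the part of the markers cannot be told apart from that of the array.

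Hif1a followed the same order of controls. It read 12.06, 12.23 and 12.31 in conditional cells, against 11.20 in control replicate 1 and 12.07 in control replicate 2. The control replicate 2 value lay just above the lowest conditional array. The difference was 0.57 ± 0.276 (SE), with a 95% interval from -0.14 to 1.27 (limma, adjusted p = 0.434), 1.002 against control replicate 1 and 0.13 against control replicate 2. It was 0.20 with the T cell marker mean as a covariate, which is tied to control replicate 1. With control replicate 1 as the lone control the adjusted p in limma was 0.00545 for Hif1a and 0.00311 for Slc2a3, in the fit that called 27.5% of all genes.

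Hk2, the inducible hexokinase bound to mitochondria, had the most even conditional values of the 10, 9.04, 9.09 and 9.11, against 9.23 in control replicate 1 and 7.82 in control replicate 2. One control thus lay above all conditional arrays and the other far below them. The difference was 0.55 ± 0.416 (SE), with a 95% interval from -0.51 to 1.62 (limma, adjusted p = 0.611). Set against control replicate 1 it was -0.15. Set against control replicate 2 it was 1.26, with an adjusted p of 0.00761 in limma with that array as the lone control, a fit from which the gap between the controls is absent.

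Pdk1 showed the mirror image of Hk2 in control replicate 2. It read 7.22, 7.54 and 7.48 in conditional cells, against 7.44 in control replicate 1 and 9.41 in control replicate 2. Control replicate 1 fell within the conditional values, and control replicate 2 stood alone above all other arrays. The difference was -1.01 ± 0.578 (SE), with a 95% interval from -2.49 to 0.47 (limma, adjusted p = 0.496), the only negative one of the 10. Set against control replicate 1 it was -0.031. Set against control replicate 2 it was -1.99, with an adjusted p of 0.00577 in limma with that array as the lone control, where the gap between the controls is again absent. Its control arrays were 1.96 apart, a gap exceeded by 3.96% of all genes, and those of Hk2 were 1.41 apart, exceeded by 8.19%.

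Hk1, the constitutive hexokinase, rested on the choice of probe set. The probe set taken by the highest mean read 12.61, 12.85 and 12.68 in conditional cells, against 12.55 and 12.77 in control cells, and the groups overlapped. Its difference was 0.055 ± 0.134 (SE), with a 95% interval from -0.29 to 0.40 (limma, adjusted p = 0.910). The other probe set with this symbol alone read 9.24, 9.30 and 9.45 in conditional cells, against 9.56 and 9.64 in control cells, so that all conditional values lay below both controls. Its difference was -0.27, and it did not pass when it stood for the gene (limma, adjusted p = 0.387, a choice added after the data were seen). In the platform annotation the first probe set lists 1 accession, which 17 probe sets of the table list, 15 of them under several gene symbols, whereas the other lists 8, RefSeq transcripts of Hk1 among them. Among the 10 nearest annotated probe sets in the platform's numbering, none of those around the first belonged to genes of the chromosome of Hk1 (10), and 10 belonged to chromosome 14, while all 10 around the other belonged to chromosome 10. For the 9 other members, 9 or 10 of the 10 neighbours belonged to the gene's own chromosome. The level of Hk1 in these cells is therefore uncertain here.

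**Figure D4:**
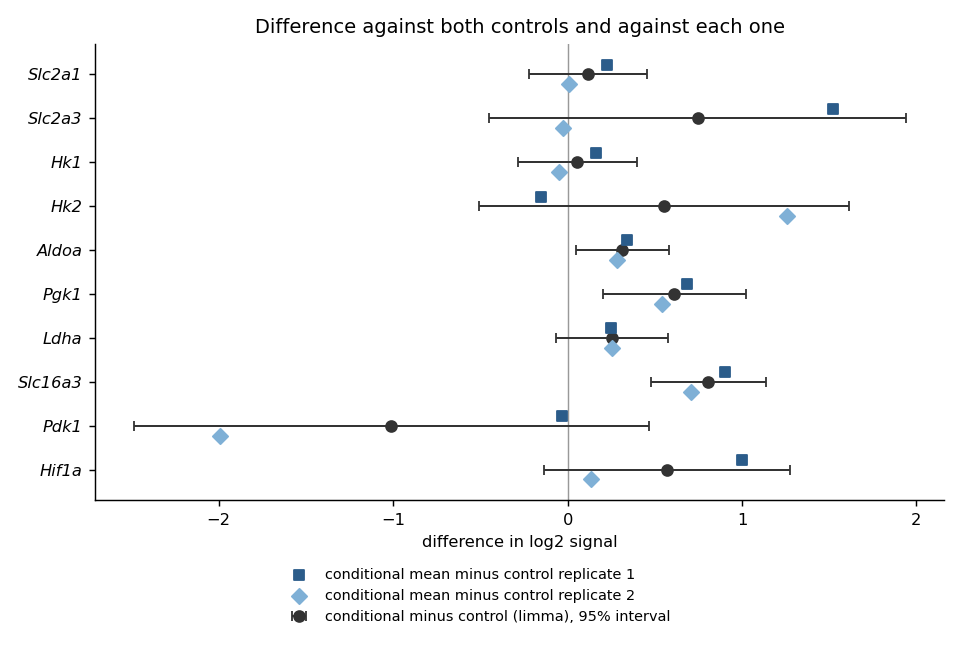
Difference in log2 signal (horizontal axis) of each gene, as conditional minus control from limma with its 95% interval (circles), and as the conditional mean minus control replicate 1 (squares) or control replicate 2 (diamonds). Both controls gave similar differences for Aldoa, Pgk1, Ldha and Slc16a3, while Slc2a1, Slc2a3, Hk1, Hk2, Pdk1 and Hif1a had a control at or near 0 or on the other side of it.

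Among all genes, those with the most similar pattern over the 5 arrays were found by the root mean square distance between values centred on each gene's mean. For Slc16a3 they were Scyl2, Rtf2 and Lin54, at distances of 0.024 to 0.036 on the log2 scale. Those of Pgk1 were Map3k5, Cfp and Mapk14, at 0.026 to 0.034. For Pdk1 they were Sema4a (0.10), Klf2, a transcription factor of resting T cells (0.13), and Cd22, a receptor of B cells (0.14), all highest in control replicate 2. Klf2 read 9.25, 9.23 and 9.18 in conditional cells, against 9.35 in control replicate 1 and 11.27 in control replicate 2. For Hk2 they were Ly96, a partner of the lipopolysaccharide receptor, Zc3h12c and Nek6, at 0.083 to 0.095, all lowest in control replicate 2. Slc2a3 was most like Pim2, a survival kinase of lymphocytes, at 0.037. With 5 arrays these distances only describe shared array patterns.

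The further glycolytic enzymes that were measured did not follow the 10 as a group, with 8 differences above 0 and 7 below. Gapdh, Gpi1 and Eno1 were not among them, and muscle forms such as Pfkm and Eno3 were, so they do not stand for all of glycolysis. Of 15 further glycolytic enzymes measured of 20 listed, 0 passed in limma and the median difference was 0.009. In 3 of them the unadjusted limma p was below 0.05, against 14.5% of all genes. Fully higher were 3 and fully lower 2, against 17.4% and 13.1% of all genes. Of the subunits of phosphofructokinase, which commits glucose to glycolysis, the liver type Pfkl was at 0.53, the platelet type Pfkp at 0.55 and the muscle type Pfkm at -0.67 (limma, adjusted p = 0.343, 0.562 and 0.286), and the difference between subunits was not tested. Pfkl read 9.07, 9.37 and 9.41 in conditional cells, against 8.50 and 9.01 in control cells. Pfkm read 7.44, 7.32 and 7.23, against 8.35 and 7.66. Pgam1, the mutase that follows Pgk1, was at 0.37, and the enolase Eno3, the muscle form, at -0.73 (limma, adjusted p = 0.354 and 0.116). The pyruvate kinase gene Pkm was at 0.076, Tpi1 at 0.062 and the phosphofructokinase activator Pfkfb3 at -0.12.

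Of the 9 other glucose transporter genes, 1 rose and none fell, where 0.371% of all genes were called higher and 0.0451% lower, and their median difference was -0.097. Slc2a6, a transporter of intracellular vesicles studied mostly in macrophages, read 9.96, 9.87 and 9.75 in conditional cells, against 8.59 and 8.24 in control cells. It rose 2.73-fold, a difference of 1.45 on the log2 scale (limma, adjusted p = 0.0496), close to the threshold. Macrophage and dendritic markers were higher in the same arrays, 6 of 11 with all conditional values above both controls, against 17.4% of all genes. Their part in the increase of Slc2a6 was not tested. Slc2a10 was at -0.82, Slc2a9 at -0.38 and Slc2a13 at -0.70, none past the threshold.

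Of 15 genes that handle pyruvate and lactate, measured of 16 listed, 0 passed in limma. In 3 of them the unadjusted limma p was below 0.05, against 14.5% of all genes. Groups overlapped for 11, as for 13864 of all 19937 genes. The difference was below 0 for 9 of the 15, as for 8793 of all 19937 genes. Their median difference was -0.12, or -0.19 with control replicate 1 and 0.025 with control replicate 2 as the only control. Ldhb, the lactate dehydrogenase subunit that favours pyruvate, read 7.29, 7.12 and 7.24 in conditional cells, against 7.62 and 8.03 in control cells, a difference of -0.61 (limma, adjusted p = 0.193). It lay below both controls where Ldha lay above both. Pdk2, another pyruvate dehydrogenase kinase, was at -1.38 and Pdha1, a subunit of that dehydrogenase, at -0.43 (limma, adjusted p = 0.205 and 0.250). Pdk2 read 7.95, 7.70 and 7.48 in conditional cells, against 9.67 and 8.50 in control cells. Slc16a7, a monocarboxylate importer, was at -1.61, or -2.71 with control replicate 1 and -0.51 with control replicate 2 as the only control. Slc16a1, the lactate transporter MCT1, was at -0.25, and Bsg, the chaperone of MCT1 and MCT4, at 0.080.

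In the HIF pathway 1 of 9 genes rose and none fell, where 0.371% of all genes were called higher and 0.0451% lower. The median was 0.43. Egln3, which encodes the prolyl hydroxylase PHD3 and is itself induced by HIF, read 10.48, 10.46 and 10.50 in conditional cells, against 8.66 and 9.04 in control cells. The conditional arrays were nearly equal and more than 1 unit above both controls. It rose 3.11-fold, a difference of 1.63 (limma, adjusted p = 0.0345). Hif1an, the asparagine hydroxylase that restrains HIF, was at 0.79, Vhl, the ubiquitin ligase subunit that marks HIF for degradation, at 0.43 and Epas1, which encodes HIF-2α, at 1.14 (limma, adjusted p = 0.131, 0.193 and 0.367), each with all conditional values above both controls. Epas1 read 11.39, 11.28 and 11.22 in conditional cells, against 10.96 and 9.36 in control cells. With Egln3, 4 of the 9 genes were fully higher and 1 was fully lower, against 17.4% and 13.1% of all genes.

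Of 14 further HIF target genes outside glycolysis measured of 15 listed, 1 rose and none fell, and the median was 0.070. Over all genes 0.371% were called higher and 0.0451% lower. Mxi1, a MAX partner that opposes MYC, read 10.13, 10.18 and 10.17 in conditional cells, against 9.15 and 9.23 in control cells, and rose 1.96-fold (limma, adjusted p = 0.0496). Bhlhe40, a helix-loop-helix repressor, was at 0.99 and just missed the threshold (limma, adjusted p = 0.0501). P4ha1, a collagen prolyl hydroxylase, was at -0.56, Kdm3a, a histone demethylase, at 0.41, Vegfa at 0.093 and the mitophagy receptor Bnip3 at -1.17, none of which passed. Among 16 measured regulators of T cell glucose use of 17 listed, 0 passed in limma and the median was 0.11. In 4 of them the unadjusted limma p was below 0.05, against 14.5% of all genes. Slc3a2, the heavy chain of amino acid transporters, was at 0.45, Rptor, the scaffold of mTOR complex 1, at 0.52, Txnip, which promotes internalisation of glucose transporters, at -0.79 and Myc at -0.34 (limma, adjusted p = 0.147, 0.157, 0.254 and 0.316), and in each the groups did not overlap. These 4 had the smallest p of the list, a choice that favours separate groups. Of all 16 regulators, 8 did not overlap in either direction, against 30.5% of all genes. All 3 genes that rose, Slc2a6, Egln3 and Mxi1, lost the call when any 1 conditional array was left out (limma, adjusted p from 0.209 to 0.373). Those fits called 0 of all genes, so every gene lost its call there. With 1 control array left out, the differences of the 3 genes lay between 0.93 and 1.82.

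**Figure D5:**
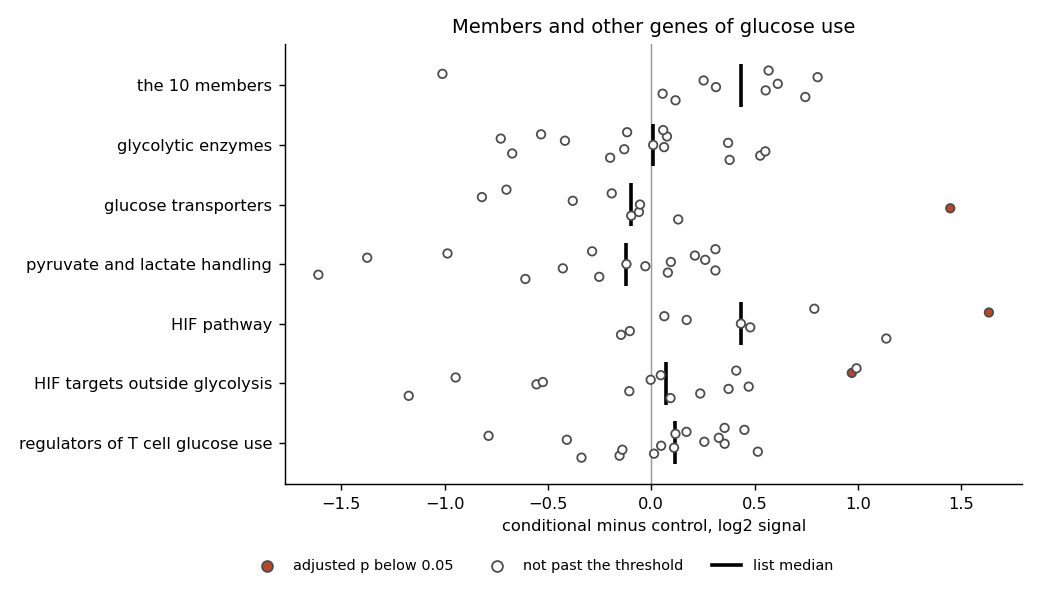
Difference in log2 signal, conditional minus control (horizontal axis), of the 10 members and of the genes of 6 further lists (rows), with each circle a gene, filled where the adjusted p was below 0.05, and a bar at each list's median. The members' median was 0.43 and that of the further glycolytic enzymes 0.009, and the filled circles are Slc2a6, Egln3 and Mxi1.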

How the data were processed

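Affymetrix arrays of 3 conditional and 2 control samples were analysed, grouped by the genotype label and numbered as in the titles. The deposited values are log2 signals, and the submitters' processing notes name RMA and the package oligo for them. Versions and the build were not given in the sources used here. RMA normalizes the arrays together and compresses differences of dim genes. Array medians over the 34760 probe sets lay between 7.12 and 7.23, and no 2 arrays were identical. The number of arrays limits the precision.

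The platform annotation, from an older release, gave 1 symbol for 21640 probe sets, several for 1321 and none for 11799. A total of 19937 genes were fitted with limma 3.58.1 in R 4.3.3 (lmFit, eBayes, no covariate, 3 residual and 2.10 prior degrees of freedom), with Benjamini-Hochberg adjustment of p. The fit was tested on simulated arrays. The members and 12 further lists (146 of 158 genes measured) were chosen with earlier results of these data known. Named were all members and, of each list of glucose use, the genes past the threshold and otherwise the 4 with the smallest p. Others were named as examples chosen after their values were seen. The cell type marker lists were given as means, with their genes past the threshold and a few defining markers. Alternatives were other normalizations, filters, probe set choices, variance models, array weights, a replicate block, a T cell marker covariate and each array left out. Promoter sequences are from RefSeq.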

Additional observations from a re-analysis of the deposited data

How the results depend on the processing

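With 17 alternatives, the number of genes past the threshold in limma (83) was 47 after another quantile normalization, 13 with array weights and 1582 with the T cell marker mean as a covariate, and leaving out 1 array gave 0 to 5474. It was 0 without any one of conditional replicates 1, 2 and 3 (between 1417 and 2037 genes at an unadjusted p below 0.05), 1217 without control replicate 1 and 5474 without control replicate 2. Of the 10 members 0 passed, against 3 with that covariate (Slc16a3 and Hk2 higher, Pdk1 lower) and 0 to 4 with 1 array left out, where the same 3 passed without control replicate 1, and Slc16a3, Pgk1, Slc2a3 and Hif1a as higher without control replicate 2, in fits that called 6.10% and 27.5% of all genes. The members' median was 0.22 with the covariate and between 0.20 and 0.46 with 1 array left out. The covariate and control replicate 1 are tied, since that array has the low T cell markers. With 1 control left, the lone array is assumed to vary like the conditional ones.

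The sign turned for Hk1 with the mean of its probe sets (-0.11), with the probe set of smallest p or with a RefSeq accession (-0.27 in both), with the covariate (-0.036) and with 1 array left out (-0.052 to 0.16, with -0.013 without conditional replicate 2), for Slc2a3 without control replicate 1 (-0.029, with 1.52 at the other end) and for Hk2 without control replicate 2 (-0.15, with 1.26 at the other end). The cause was not tested beyond the choice of array or probe set itself. Slc2a1, Aldoa, Pgk1, Ldha, Slc16a3, Pdk1 and Hif1a kept their sign in all 17. Slc2a6, Egln3 and Mxi1 kept their sign in all 17 and lost the call in 8, 6 and 12. These include the fits without a conditional array, which called 0 genes. With the replicate block, over the 2 numbers both groups share, 69 genes and 0 members passed and the members' median was 0.39. The labels do not say that equal numbers mark a shared experiment. Deviations of equally numbered arrays correlated over genes at 0.40 for number 1 and -0.29 for number 2. Those of control replicate 2 and conditional replicate 3 correlated at 0.58. With 2 control arrays, the deviations of one are the negatives of the other, so these values cannot decide whether equal numbers are paired. No array gives a call against background, so the bottom of the scale is not known.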

Other observations

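Hk1 was listed with 17 probe sets, 15 of them under several symbols, and those 15 had differences from -0.068 to 0.33, of which 11 were above 0. Those 15 also carry symbols of other genes, so they are not separate readings of Hk1 and their range is no standard for it. The probe set with the Hk1 symbol alone and RefSeq transcripts was at -0.27.

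For the genes with separate groups, the gap between both control arrays was 0.0065 for Ldha, 0.055 for Aldoa, 0.14 for Pgk1 and 0.19 for Slc16a3. A larger gap was found in 98.8%, 89.7%, 72.8% and 63.8% of all genes. Separate groups favour a small gap, so these values follow in part from the choice of genes. For Slc2a1 and Hk1, whose groups overlapped, the gap was 0.215 and 0.214, exceeded by 59.2% and 59.4% of all genes. The gap was 1.55 for Slc2a3 and 0.87 for Hif1a, exceeded by 6.92% and 15.7% of all genes. Cd44, which encodes the receptor used in the sort, read 10.82, 10.97 and 11.15 in conditional cells, against 10.29 and 10.05 in control cells (difference 0.81, limma, adjusted p = 0.115). All conditional values lay above both controls, as in 17.4% of all genes. The sort used CD44 at the cell surface, whereas these values are RNA of all cells in the sample. They do not show whether the gating differed between groups.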
